A study of Mus musculus with 6 samples.

Results

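The immediate early transcription factor genes Fos, Fosb, Fosl1, Fosl2, Jun, Junb, Egr1, Ier2, Atf3 and Myc were followed in NOR-10, a line of mouse fibroblasts from skeletal muscle. They were taken by symbol from the deposited gene table, as a list drawn up with earlier results of these data known. Each of the 10 symbols matched 1 row among the 34745 genes in the table, and all 10 were among the 13407 genes that passed edgeR's filter on low counts. RNA-seq covered 3 control libraries from cells given PBS and 3 libraries from cells incubated with D-gal (D-galactose, a sugar used to induce senescence) at 20 mg/mL for 3 days. Both groups came from 1 established line, and no genotype or other agent separated them. Nothing in the sources says that the replicates were separate cultures, so p-values measure the spread between these libraries, which may be technical.

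Immediate early genes are transcribed within minutes of a stimulus such as serum, a growth factor or a stress, from transcription factors that are already present in the cell, and their mRNAs are usually short-lived. FOS family proteins pair with JUN family proteins through leucine zippers to form AP-1, a dimer that binds DNA. EGR1 is a zinc finger factor, IER2 a small nuclear protein, ATF3 a leucine zipper factor of stress responses and MYC a factor that drives growth genes as a dimer with MAX. In fibroblasts these genes are the classical response of resting cells to serum. The question put to the data was whether their level differed after 3 days in D-gal, a time long after the first minutes in which these genes are best known.

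The 250 bases upstream of the annotated start of Jun, Junb, Fos and Fosb are printed because the calls on these AP-1 genes, given further on, ranged from a fall to a rise, and because their RefSeq start (GRCm38.p6) is also the start in the deposited table. All are written 5′ to 3′ on the strand of the gene and end 1 base before the start. They are chr4:95052223-95052472 (minus strand) for Jun, chr8:84978749-84978998 (minus strand) for Junb, chr12:85473640-85473889 (plus strand) for Fos and chr7:19310046-19310295 (minus strand) for Fosb. Capitals mark matches, on either strand, to short motifs of factors that act at such promoters.
Jun: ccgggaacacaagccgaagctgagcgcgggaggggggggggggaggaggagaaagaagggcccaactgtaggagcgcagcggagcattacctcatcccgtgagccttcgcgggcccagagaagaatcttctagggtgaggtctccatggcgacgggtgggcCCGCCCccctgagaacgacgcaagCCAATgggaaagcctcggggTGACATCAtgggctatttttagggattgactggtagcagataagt
Junb: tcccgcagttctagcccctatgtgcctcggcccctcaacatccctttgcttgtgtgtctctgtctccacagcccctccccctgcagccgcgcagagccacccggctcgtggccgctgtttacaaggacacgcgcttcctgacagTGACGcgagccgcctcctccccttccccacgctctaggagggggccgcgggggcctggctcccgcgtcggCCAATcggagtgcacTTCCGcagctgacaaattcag
Fos: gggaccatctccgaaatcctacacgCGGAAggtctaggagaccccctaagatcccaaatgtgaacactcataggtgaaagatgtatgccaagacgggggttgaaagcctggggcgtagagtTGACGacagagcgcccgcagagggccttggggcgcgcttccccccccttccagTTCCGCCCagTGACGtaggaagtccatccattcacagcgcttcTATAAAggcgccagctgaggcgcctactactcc
Fosb: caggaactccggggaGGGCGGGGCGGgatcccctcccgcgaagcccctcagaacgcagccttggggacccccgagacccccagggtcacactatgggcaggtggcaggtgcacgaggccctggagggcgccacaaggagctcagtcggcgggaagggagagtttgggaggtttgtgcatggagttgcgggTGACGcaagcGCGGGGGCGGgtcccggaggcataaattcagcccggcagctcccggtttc

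The motifs searched were the TATA box TATAAA, the CCAAT box CCAAT, the GC box GGGCGG, the core TGACG of the cyclic AMP response element, its full form TGACGTCA, the AP-1 site TGACTCA, the variant AP-1 site TGACATCA known from the Jun promoter, the ETS core CGGAA, the E-box CACGTG, the EGR site GCGGGGGCG, and the CArG box bound by SRF. The GC box overlaps the EGR site and can overlap the ETS core, and the full cyclic AMP response element holds its core. The Jun window held the variant AP-1 site 45 to 38 bases before the start, a motif found in 2.93% of the 32851 windows of the same length in the RefSeq table. It also held a CCAAT box, as did the Junb window, against 33.9% of all windows. The core TGACG was present in Junb, Fos and Fosb and in Atf3, which makes 4 of the 6 members whose windows were searched, against 17.8% of all windows. In Fos it lay 129 to 125 and 66 to 62 bases before the start, with a TATA box 33 to 28 bases before it, and a TATA box was present in 12.4% of all windows. The GC box was in 5 of the 6 windows, against 32.7% of all windows, and the ETS core in 3 of the 6, against 25.2%. The EGR site was in the windows of Fosb and Fosl2 and in 2.57% of all windows. Matches of the CArG box, the E-box, TGACTCA and the full response element were 0 in the 6 windows, against 1.47%, 6.02%, 4.46% and 1.55% of all windows. A match is a description of letters and not evidence of binding. Sequence beyond these windows was not searched, nor were Egr1, Fosl1, Ier2 and Myc. A motif missing from the windows may therefore lie elsewhere at the gene. For Atf3 and Fosl2 the RefSeq start used is not the start in the deposited table.

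The libraries held between 13759108 and 20830349 counts, with 16876087 or more in each control library and 15157064 or fewer in each D-gal library. Counts were scaled by edgeR's TMM factors, which lay between 0.986 and 1.01, and over the genes tested the log2 fold change had a median of 0.0036. Fold changes are D-gal over control. Of 10 fibroblast markers, 9 were tested, and Lum had at most 1 count in a library. Among them Col1a1 had 20247 to 47163 counts and Pdgfra 8307 to 12742, while Epcam, Adipoq, Pax7, Myod1 and Myf5 had 0 counts in every library. Other genes of the myogenic and adipocyte lists were detected at low counts, Acta1 with 27 to 50, Fabp4 with 16 to 32 and Des with 26 to 67. Des, which encodes the muscle filament protein desmin, fell by 0.78 on the log2 scale, and neither Acta1 nor Fabp4 passed the test. Of the fibroblast markers, 6 fell and 1 rose, against 17.8% and 16.9% of all genes tested. The leukocyte markers Csf1r and Ptprc had 141 and 13 counts in control replicate 1, against 13 to 38 and 0 to 3 in the other libraries. The summed level of that list was 4.69 to 18.0 CPM (counts scaled to library size) in control and 4.61 to 5.60 CPM under D-gal, while that of the fibroblast list was 7610 to 7805 and 4995 to 5320 CPM. The epithelial genes Cdh1 and Krt19 also fell, and their list summed to 34.7 to 37.2 CPM in control and 20.9 to 23.7 CPM under D-gal. The part of these shifts in the results on the members was not tested, and fewer cells of a type cannot be told apart from less RNA per cell.

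Of the 10 members, 4 fell and 3 rose at an adjusted p-value under 0.05 (edgeR's quasi-likelihood test, Benjamini-Hochberg adjustment over all genes tested), while 3 did not pass. Of all genes tested, 17.8% fell and 16.9% rose. Those that fell were Ier2, Egr1, Junb and Jun, and those that rose were Fosb, Fosl2 and Myc. The groups did not overlap for 8 members, 5 lower and 3 higher, where this held for 49.1% of all genes tested. Beside the threshold on the adjusted p-value, the study's methods ask for a log2 fold change whose size is 1 or more. Under both criteria 0 members were differentially expressed in edgeR, against 4.21% of all genes. DESeq2 and limma also gave 0, and 8 members had an unadjusted p under 0.05 in edgeR, as did 44.6% of all genes. The median log2 fold change of the members was -0.26, and the median size of the change was 0.33, against 0.19 for all genes.

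**Figure D1:**
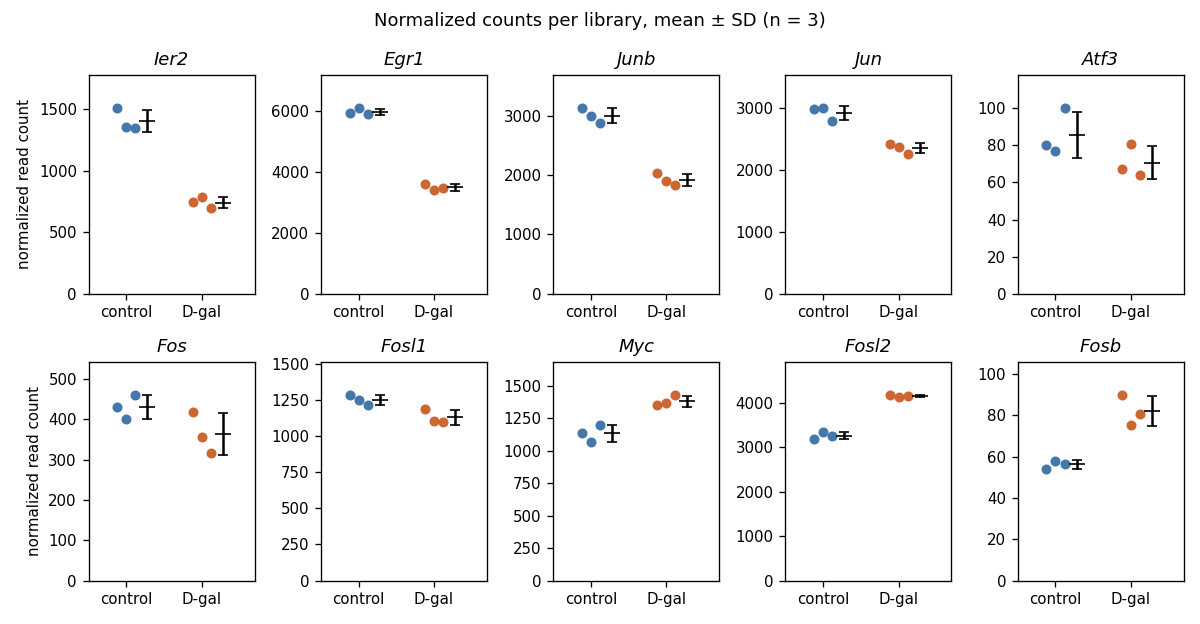
Normalized read count (vertical axes from 0) of each member in the 3 control (blue) and 3 D-gal (orange) libraries, with the mean ± SD beside the points. The panels run from the largest fall to the largest rise, and the groups overlap only for Atf3 and Fos.

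**Figure D2:**
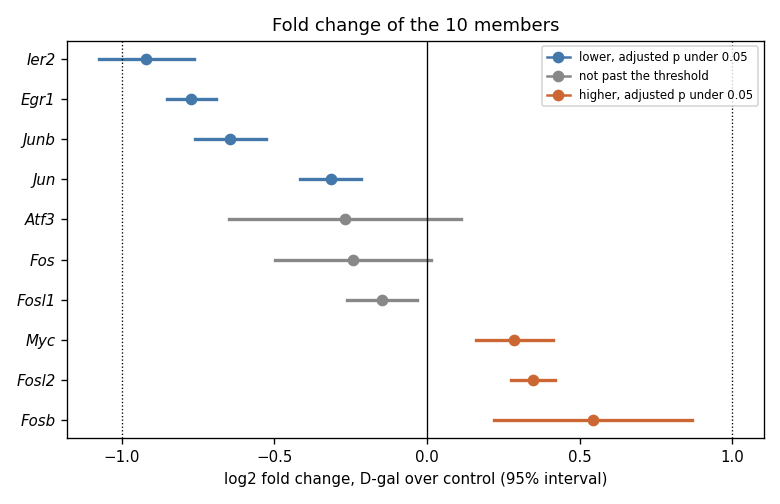
Log2 fold change of D-gal over control with its 95% interval from edgeR. Dotted lines mark a log2 fold change of 1 in either direction, and the interval of Ier2 is the 1 that reaches past a dotted line, to -1.07.

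Ier2 fell most. The gene (ENSMUSG00000053560) lies on chromosome 8, from 84661331 to 84662852 on the minus strand of GRCm38, and has 1 exon. Counts of Ier2 were 1730, 1665 and 1331 in control and 662, 721 and 576 under D-gal. Each D-gal library was below each control library. After normalization these were 1403 ± 90.5 (SD, n = 3) and 741 ± 46.6 (SD, n = 3), a level 1.89-fold lower. On the log2 scale the change was -0.92 (95% interval -1.07 to -0.77), with an adjusted p of 4.9e-05 in edgeR's quasi-likelihood test. Over 14 alternatives of processing it lay between -0.96 and -0.86.

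Egr1, which encodes a zinc finger factor induced by serum and by mechanical load, had the smallest p of the members and the 38th smallest of all genes tested. The gene (ENSMUSG00000038418) spans 34859823 to 34864984 on the plus strand of chromosome 18, with 2 exons. It had 6804, 7446 and 5832 counts in control and 3216, 3106 and 2879 under D-gal. The groups were far apart relative to their spread, at 5965 ± 98.1 and 3490 ± 110.2 normalized counts (SD, n = 3). The log2 fold change was -0.77 (95% interval -0.85 to -0.69, adjusted p = 6.2e-06 in edgeR's quasi-likelihood test), a level 1.71-fold lower.

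The related factors Egr2 and Egr3, named here after their values were seen, were lower by larger folds from smaller counts. Egr2 had 788, 402 and 593 counts in control and 199, 145 and 151 under D-gal (log2 fold change -1.51, standard error 0.27, adjusted p = 0.0035 in edgeR's quasi-likelihood test). Its control replicates were spread widely, and the value was -1.30 with control replicate 1 left out. Egr3 had 169, 146 and 129 counts against 62, 33 and 19 (log2 fold change -1.61, standard error 0.32, adjusted p = 0.0056 in the same edgeR test). With single libraries left out it lay between -2.15 (without D-gal replicate 1) and -1.33. The NAB corepressors bind EGR proteins and restrain them, and both fell. Nab2 went from 3101 ± 92.8 to 1736 ± 229 normalized counts (SD, n = 3) (log2 fold change -0.84). Nab2 overlaps Gm16229, Nemp1 and Stat6 on the other strand, and whether counting used the strand is not given in the sources used here. Of its sampled sequence words of 31 bases, 37.2% occur in other annotated genes. Nab1 had a log2 fold change of -0.38 (standard error 0.05).

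Junb (ENSMUSG00000052837, chromosome 8, 84976909 to 84978748) encodes a JUN protein that is a weaker activator than JUN. It had 3592, 3678 and 2852 counts in control and 1809, 1743 and 1519 under D-gal. Normalized, these were 3004 ± 125 and 1921 ± 101 (SD, n = 3), without overlap. Its log2 fold change was -0.64 (95% interval -0.76 to -0.53, adjusted p = 6.3e-05 in edgeR's quasi-likelihood test). Exons of Prdx2 overlap Junb on the other strand. Prdx2 itself had a log2 fold change of -0.00 (95% interval -0.13 to 0.12).

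Jun (ENSMUSG00000052684, chromosome 4, 95049034 to 95052222) fell less than Junb, with intervals of the fold change that do not meet. Its counts were 3412, 3667 and 2760 in control and 2150, 2170 and 1872 under D-gal. With D-gal it changed by -0.31 on the log2 scale (95% interval -0.41 to -0.22, adjusted p = 0.0010 in edgeR's quasi-likelihood test), a level 1.24-fold lower. The antisense gene Junos overlaps it, with 51, 61 and 61 counts in control and 24, 34 and 19 under D-gal, which is small beside the counts of Jun. The remaining family gene, Jund, is no immediate early gene in most cells and was taken in for the family comparison. It fell too, from 1318 ± 79.5 to 920 ± 34.1 normalized counts (SD, n = 3) (log2 fold change -0.52, adjusted p = 3.8e-04 in edgeR's quasi-likelihood test). Of its sampled sequence words of 31 bases, 48.8% occur in other annotated genes, among them Gm11175 on the other strand, which had 2 to 9 counts.

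Fosl2 (ENSMUSG00000029135, chromosome 5, 32135801 to 32157842), which encodes FRA2, a FOS protein without the strong activation domain of FOS, had the smallest p of the members that rose. Its counts were 3651, 4078 and 3224 in control and 3715, 3774 and 3433 under D-gal. The raw counts overlap because the control libraries were deeper, while the normalized counts, 3255 ± 73.0 and 4142 ± 24.5 (SD, n = 3), do not. This is a log2 fold change of 0.35 (95% interval 0.27 to 0.42, adjusted p = 1.4e-04 in edgeR's quasi-likelihood test), a level 1.27-fold higher.

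Fosb (ENSMUSG00000003545, chromosome 7, 19302721 to 19310045) had the largest rise by fold and few counts, with 62, 71 and 56 in control and 80, 69 and 67 under D-gal. Normalized, these were 56.2 ± 1.98 and 81.9 ± 7.29 (SD, n = 3), without overlap. D-gal over control gave 0.54 on the log2 scale (95% interval 0.22 to 0.87, adjusted p = 0.019 in edgeR's quasi-likelihood test). This call was not firm. The adjusted p was 0.094 in DESeq2, 0.058 without control replicate 1, 0.051 without control replicate 3 and 0.064 without D-gal replicate 1, with a higher level under D-gal each time.

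Fosl1 (ENSMUSG00000024912, chromosome 19, 5447703 to 5455945), which encodes FRA1, had 1476, 1537 and 1202 counts in control and 1060, 1012 and 910 under D-gal. The normalized groups did not overlap, at 1251 ± 36.3 and 1130 ± 51.4 (SD, n = 3), but the test was not passed (log2 fold change -0.15, 95% interval -0.26 to -0.03, adjusted p = 0.053 in edgeR's quasi-likelihood test). Without D-gal replicate 1 the adjusted p was 0.029. In 13 of 14 alternatives Fosl1 did not pass, with an adjusted p of 0.14 in edgeR without D-gal replicate 3. Of the sampled sequence words of Fosl1, 51.8% also occur in other genes, and exons of Ccdc85b lie on its other strand. Ccdc85b had 388 to 518 counts in control and 226 to 261 under D-gal, and it fell by 0.58 on the log2 scale, so the values of Fosl1 are uncertain.

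Fos itself (ENSMUSG00000021250, chromosome 12, 85473890 to 85477273) did not pass the test. Its counts were 495, 490 and 456 in control and 373, 326 and 262 under D-gal. The normalized groups overlapped, with 399.8 to 460.5 in control and 316 to 419 under D-gal. The log2 fold change was -0.24 (95% interval -0.50 to 0.01, adjusted p = 0.13 in edgeR's quasi-likelihood test), and without D-gal replicate 1 it was -0.36 with an adjusted p of 0.034. In 13 of 14 alternatives Fos did not pass. Without D-gal replicate 3 its value was -0.15, with an adjusted p of 0.32 in the same edgeR test.

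To compare the members of each family with one another, counts were divided by the annotated exon length and expressed as a share of the family's sum in each library. Fosl1 and Fosl2 together made up most of the Fos family in both groups. The share of Fosl2 was 28.5%, 30.2% and 29.6% in control and 35.6%, 37.6% and 38.4% under D-gal, which is 7.80 percentage points more. The share of Fosl1 went from 53.8% ± 1.23 to 48.3% ± 0.25 (SD, n = 3). That of Fos was 15.9%, 14.9% and 17.2% in control and 14.7%, 13.4% and 12.1% under D-gal. Fosb was a minor component at 0.79% ± 0.03 and 1.14% ± 0.07, a difference of 0.35 points that was 0.61 points with the authors' FPKM. For each of these 4 genes the groups did not overlap, and the two-sided exact permutation test gave p = 0.1, the smallest that 3 against 3 allows.

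In the Jun family, the share of Junb was 43.7%, 43.8% and 42.6% in control and 39.9%, 39.1% and 39.1% under D-gal. Jun took 30.4% ± 0.97 and 34.7% ± 0.46 (SD, n = 3), so that its share was higher although its level fell. Both shares had groups without overlap (exact permutation test, p = 0.1). The share of Jund was 24.7% to 27.7% in control and 25.8% to 26.2% under D-gal, with overlapping groups (exact permutation test, p = 0.7).

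The 3 Jun genes summed to 179 ± 5.46 CPM per kb of exon in control and 126 ± 5.25 under D-gal (SD, n = 3), a total 29.5% lower (exact permutation test, p = 0.1). The 4 Fos genes summed to 68.1 ± 0.49 and 68.5 ± 2.97 (exact permutation test, p = 1). This sum depends on the lengths: as a ratio of D-gal to control it was 1.01 with annotated exon lengths, 1.02 with the authors' FPKM and 1.15 with counts that are not divided by length. The ratio of the Fos to the Jun family was 0.370, 0.383 and 0.387 in control and 0.546, 0.535 and 0.547 under D-gal, which is 42.7% higher (exact permutation test, p = 0.1). It was higher in each of the D-gal libraries than in any control library. Of the sampled sequence words, 51.8% for Fosl1 and 48.8% for Jund also occur in other genes. Exons of other genes overlap Fosl1, Jun, Junb and Jund on the other strand. The part of this overlap in the shares, sums and ratio was not tested, so all of them are uncertain.

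**Figure D3:**
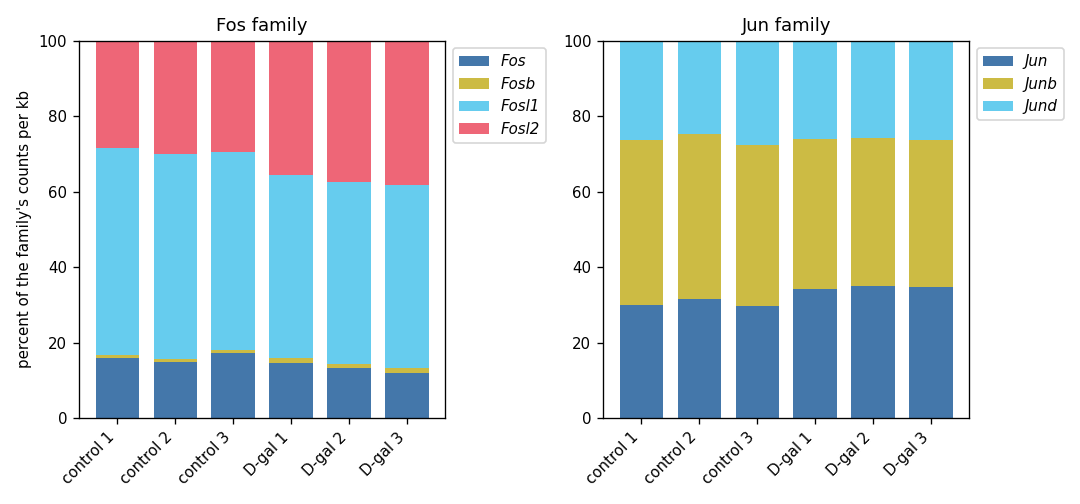
Share of each gene in its family's counts per kb of annotated exon, in percent, with 1 stacked bar per library. Fosl2 takes 28.5% to 30.2% of the Fos family in control and 35.6% to 38.4% under D-gal. In the Jun family the share of Junb is lower and that of Jun higher under D-gal, while the levels of both genes fell.

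Atf3 (ENSMUSG00000026628, chromosome 1, 191170296 to 191218039) had low counts, 92, 94 and 99 in control and 60, 74 and 53 under D-gal. The normalized groups overlapped, at 85.6 ± 12.6 and 70.7 ± 8.95 (SD, n = 3). D-gal over control gave -0.27 on the log2 scale (95% interval -0.65 to 0.11, adjusted p = 0.25 in edgeR's quasi-likelihood test). The interval holds both 0 and the value of Jun. A list around ATF3 held 8 genes, stress factors that share its partners and targets of ATF4. Of these 4 fell and 0 rose, against 17.8% and 16.9% of all genes tested. Those that fell were Cebpb, Ddit3, Trib3 and Atf5. Cebpb, which encodes a leucine zipper factor of inflammation and fat cell formation, had a log2 fold change of -0.50 (standard error 0.05), and Ddit3, which encodes CHOP, one of -0.57 (standard error 0.08). Both overlap other genes on the other strand, Cebpb with 20.6% of its sequence words shared. Atf4, the factor upstream, had a log2 fold change of 0.08 and did not pass (adjusted p = 0.058 in edgeR's quasi-likelihood test). Over the 14 alternatives 0 to 1 genes of this list rose and 4 to 5 fell.

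Myc (ENSMUSG00000022346, chromosome 15, 61985341 to 61990374) rose, with 1303, 1301 and 1186 counts in control and 1202, 1248 and 1184 under D-gal. Normalized, these were 1132 ± 68.1 and 1379 ± 41.5 (SD, n = 3), without overlap. The log2 fold change was 0.29 (95% interval 0.16 to 0.41, adjusted p = 0.0051 in edgeR's quasi-likelihood test), a level 1.22-fold higher. Of the 11 genes tested among MAX and its other partners, 1 rose and 2 fell, against 16.9% and 17.8% of all genes tested. The repressor genes Mnt (log2 fold change -0.67, standard error 0.06) and Mxd3 (-0.57, standard error 0.11) fell, and Mxi1 rose (0.27, standard error 0.06). Mycn, named after its values were seen, did not pass, with 111, 19 and 15 counts in control and 13, 3 and 2 under D-gal. Of 20 growth and ribosome genes known as MYC targets, 2 rose and 4 fell, again beside 16.9% and 17.8% of all genes. The median log2 fold change of these targets was 0.01. Ncl (-0.23) and Npm1 (-0.20), which encode nucleolar proteins, fell, and Ppat (0.21) and Odc1 (0.16) rose. The rises of Ppat and Odc1 did not hold in 5 of 14 alternatives each, with adjusted p up to 0.066 for Ppat and 0.076 for Odc1, and 30.2% of the words of Npm1 and 34.8% of those of Odc1 occur in other genes.

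The levels of the members were compared per length. In the control group they ran from 79.2 ± 1.30 CPM per kb of exon for Egr1 to 0.536 ± 0.019 for Fosb (SD, n = 3), a 148-fold range, and under D-gal the range was 63.6-fold. The order in control was Egr1, Junb, Ier2, Jun, Fosl1, Myc, Fosl2, Fos, Atf3 and Fosb. Egr1 and Junb overlapped in their replicates, as did Ier2 and Jun, and the other neighbours were apart. Under D-gal the order was Junb, Egr1, Jun, Fosl1, Myc, Ier2, Fosl2, Fos, Atf3 and Fosb, with overlap between Junb and Egr1, Egr1 and Jun, and Myc and Ier2. Ier2 thus went from a place beside Jun to one beside Myc. In rank among the 13366 tested genes with an exon length, Egr1 was at percentile 96.3 in control and 93.0 under D-gal, and Ier2 at 94.1 and 87.1. Fos, at percentile 65.6 and 60.9, was well below Fosl1 (90.2 and 89.1) and Fosl2 (80.1 and 84.8). These levels and their order depend on the lengths. In the FPKM of the authors Junb was highest in control (96.0 ± 4.23), followed by Ier2 (54.2 ± 3.62), Jun (53.8 ± 2.20) and Egr1 (46.7 ± 0.80; SD, n = 3). They divided Egr1 by 7520 bases and Myc by 9933, where the annotated exons cover 4484 and 2717.

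**Figure D4:**
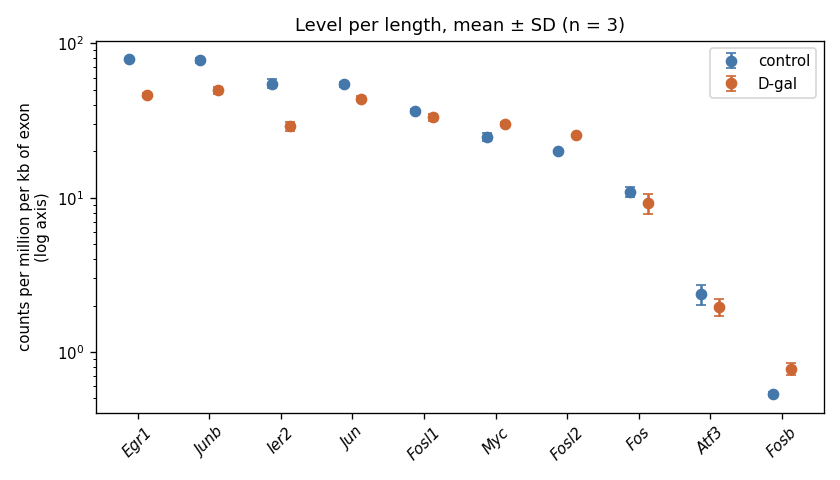
Level per length of the 10 members, in CPM per kb of annotated exon on a log axis, as mean ± SD of the 3 libraries of each group. Egr1, Junb, Ier2 and Jun, with the highest control levels, are lower under D-gal, and Myc, Fosl2 and Fosb are higher.

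Within the D-gal group most members were above the group mean in replicate 1 and below it in replicate 3, while the control replicates were mixed. In control replicates 1, 2 and 3, 6, 5 and 5 of the 10 members were above their group mean. In D-gal replicates 1, 2 and 3 the numbers were 8, 3 and 1. D-gal replicate 1 was above the group mean by 0.21 for Fos, 0.14 for Fosb and 0.08 for Junb (log2 normalized counts). The spread within groups was smallest for Fosl2 (SD 0.02 on the log2 scale) and Egr1 (0.04) and largest for Fos (0.16) and Atf3 (0.19). The genes with the most similar pattern to the mean standardized profile of the members over the 6 libraries were Rab6a, Myo9a, Cand2, Hnrnpa2b1 and Cdh6, with Pearson's r from 0.994 to 0.999 among 10404 genes compared. That mean joins members that fell and members that rose, and the 5 genes had log2 fold changes of -0.09 to -0.55.

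The members have few exons. Jun, Junb and Ier2 have 1 exon in the longest principal or consensus coding transcript of GENCODE M21, as do 2.65% of the 12312 tested genes with a coding transcript, whose median is 9 exons. These 3 fell, as did Egr1 with 2 exons, and a relation of exon number to fold change was not tested. Fos, Fosb, Fosl1, Fosl2 and Atf3 have 4 exons each and Myc has 3. The pentamer ATTTA, the core of AU-rich elements that mark short-lived mRNAs, occurred in the 3′ UTR of 9 of the 10 members, against 69.9% of 12204 tested genes with a 3′ UTR. Its density was above the median of those genes (1.34 per kb) in 8 members, led by Fos with 4.91 and Myc with 4.52 per kb, while Ier2 held 0 and Fosb 0.466 per kb. Of 7 factors that bind such elements or act in deadenylation, 2 fell and 0 rose, against 17.8% and 16.9% of all genes tested. Those that fell were Cnot1 (log2 fold change -0.22) and Khsrp (-0.23).

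Other immediate early genes moved in both directions. Of 40 listed, 38 were tested, and 8 rose and 17 fell, against 16.9% and 17.8% of all genes tested. Their median log2 fold change was -0.05, against 0.0036 for all genes. The 2 rises with the smallest p were those of Ptgs2, which encodes cyclooxygenase-2, and Ier3, which encodes a regulator of cell survival. Ptgs2 had 11824 ± 105 normalized counts in control and 18198 ± 364 under D-gal (SD, n = 3), or 0.62 more on the log2 scale. Ier3 had 1721, 1773 and 1478 counts against 3192, 3882 and 3514, which is 2.72-fold more after normalization (log2 fold change 1.44, standard error 0.07). Klf4, which encodes a zinc finger factor of growth arrest, fell from 1936 ± 20.5 to 1014 ± 58.2 normalized counts (SD, n = 3, log2 fold change -0.93). Ier5 changed by -0.53 (standard error 0.04). Dusp1, which encodes a phosphatase of MAP kinases and was named after its values were seen, rose by 0.94 on the log2 scale (standard error 0.05).

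Among the genes upstream of the members, the share without a call was near that of all genes tested, of which 65.2% did not pass. The counts of rises and falls below stand beside 16.9% and 17.8% of all genes tested. Of 10 transcription factors at immediate early promoters, 2 rose, 1 fell and 7 did not pass. Mkl1, which encodes the SRF coactivator MRTF-A, rose (log2 fold change 0.60, standard error 0.06), and so did Elk3 (0.21, standard error 0.04), while Elk4 fell (-0.46, standard error 0.06). These 3 genes overlap others on the opposite strand. Srf, which encodes the factor that ELK proteins and MRTF-A bind, had a log2 fold change of 0.03. Of 23 MAP kinases and kinases beside them, 4 rose, among them Map2k4 (0.31) and Braf (0.49), and 4 fell, among them Rps6ka4 (-0.75) and Mapk11 (-0.77), and 15 did not pass. Of 13 feedback genes of ERK signalling, 1 rose (Spry1, 0.88, standard error 0.14) and 3 fell. The phosphatase genes Dusp5 (-0.92, standard error 0.07) and Dusp4 (-0.50, standard error 0.07) were the falls with the smallest p. Dusp6, often read as a measure of ERK activity, had a log2 fold change of -0.04.

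Among other subunits that can join AP-1 dimers, 4 of 7 genes were tested. Of these 2 fell (Jund and Atf7) and 0 rose, against 17.8% and 16.9% of all genes. Of the sequence words, 48.8% for Jund and 12.5% for Atf7 occur in other genes. Of 16 genes known for AP-1 sites in their promoters, 15 were tested, and 10 fell and 1 rose, against 17.8% and 16.9% of all genes. The median log2 fold change of the list was -0.50. The falls with the smallest p were Mt1, a metallothionein that answers to metals, from 827 ± 41.7 to 207 ± 36.3 normalized counts (SD, n = 3), which is 3.99-fold lower, and Ccnd1, which encodes cyclin D1, with a log2 fold change of -0.73. Mmp3, which encodes stromelysin-1, rose by 0.78 on the log2 scale (standard error 0.14). Of the sequence words of Dusp5, Spry1, Mmp3 and Ccnd1, 19.4% to 23.2% occur in other genes. The AP-1 targets have many other regulators, and the part of AP-1 in their change was not tested. This list, like the others, was chosen with earlier results of these data known. Its counts beside those of all genes are therefore a description and not a test.

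**Figure D5:**
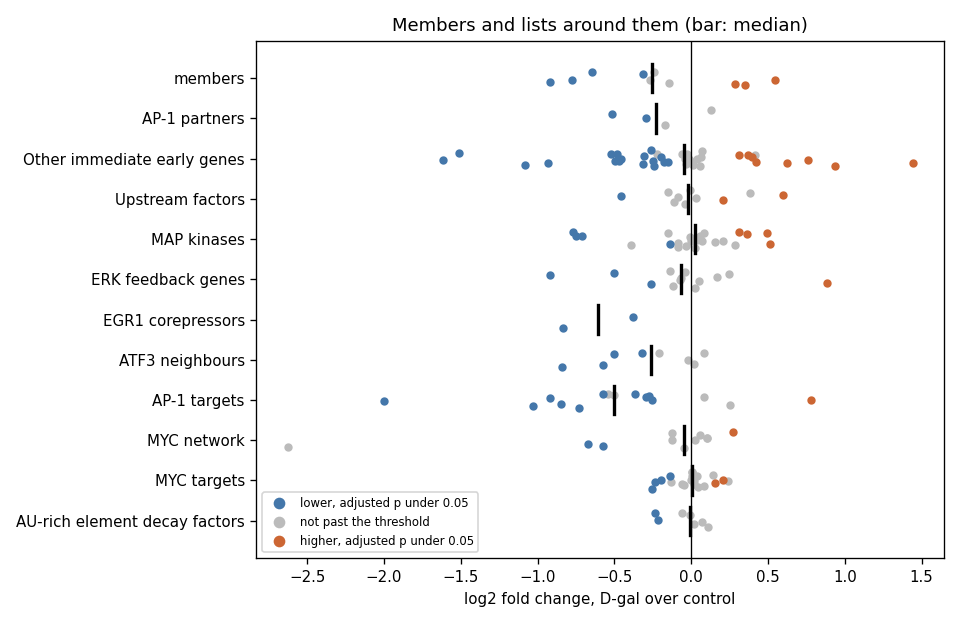
Log2 fold change of D-gal over control for each tested gene of the members and of the 11 lists around them, coloured by call, with a black bar at the median of each list. The AP-1 targets and the EGR1 corepressors lie mostly below 0, and the MAP kinases and MYC targets are centred near 0. The lists were chosen with earlier results of these data known.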

How the data were processed

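RNA-seq of 3 control and 3 D-gal libraries of NOR-10 cells was analysed from the deposited gene table. The labels name an RNA-seq library kit and the study's methods a small RNA kit, and which was used was not settled. The authors deposited read counts per gene without normalization, and FPKM values that the authors computed from them. Per the study's methods, reads were checked with FastQC and trimmed with Trimmomatic, and the submitters' processing notes name HISAT2 (version 2.0.4). The counting tool, strand setting, build and annotation are not given in the sources used here. Spans of 6 of the 10 members are identical to GENCODE M21 (GRCm38). All per-sample columns matched a sample by title.

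Counts were tested with edgeR (version 4.0.16, R 4.3.3): TMM, filterByExpr, quasi-likelihood test, Benjamini-Hochberg adjustment over 13407 genes, no covariate. Intervals are 95% and cover the spread between libraries. Normalized counts are counts over TMM-scaled library size, times its mean. Exact permutation tests used 3 against 3. Functions were tested on simulated data. Alternatives were DESeq2 (1.42.0), RLE, library totals, other filters, a replicate block, left-out libraries, thinned counts, glmTreat and limma (3.58.1) on log2(FPKM + 1). Replicates of a group differed beyond sampling noise (chi-square over degrees of freedom of 6.00 or more). The members and lists were chosen with earlier results of these data known. Genes named are the members and, per list, up to 2 rises and 2 falls with the smallest p. Trib3, Atf5, Atf4, Srf and Dusp6 fall outside this rule and were named after their values were seen, as were marker genes outside it. Mymk was not matched in the table.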

Additional observations from a re-analysis of the deposited data

How the results depend on the processing

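The falls of Ier2, Egr1, Junb and Jun and the rises of Fosl2 and Myc kept their direction and an adjusted p under 0.05 in each of the 14 alternatives, with log2 fold changes from -0.96 to -0.86 for Ier2, -0.80 to -0.72 for Egr1, -0.69 to -0.60 for Junb, -0.35 to -0.27 for Jun, 0.33 to 0.38 for Fosl2 and 0.24 to 0.33 for Myc. The 14 leave out glmTreat, which tests for a log2 fold change beyond 1 in size and gave 0 members. Leaving out single libraries gave 4 to 6 members lower, 2 to 3 higher and 0 differentially expressed. The call of Fosb was lost in DESeq2, with the replicate block (adjusted p = 0.058 in edgeR) and without control replicate 1, control replicate 3 or D-gal replicate 1. No pairing by replicate number was seen: deviations of same-numbered libraries had correlations of -0.011, -0.0027 and 0.028 across genes. Whether same-numbered libraries were handled together cannot be told from these values. With the replicate block 2 members were higher and 4 lower, and it changed no other member's call. Scaling by library totals alone moved the median of all genes to 0.038 (log2). Without length correction the ratio of the Fos to the Jun family was 1.60-fold higher under D-gal in place of 1.43-fold, and it was 1.41 to 1.44-fold with single libraries left out, alternatives chosen after seeing the data. The share of Jund in the Jun family, -0.26 percentage points, lay between -1.04 and 0.46 (without control replicate 3) when single libraries were left out. Of all genes, 564 were differentially expressed, but 120 in limma on log2(FPKM + 1) and 95 with glmTreat. The MYC targets that rose numbered 0 to 3 over the alternatives. Fosb and Atf3 had under 100 counts in each library, and with counts thinned to the smallest total Fosb kept its call and Atf3 again did not pass.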
